A study of Mus musculus with 6 samples.

Results

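The insulin and insulin-like growth factor (IGF) axis was read from 10 genes: *Igf1*, *Igf1r*, *Insr*, *Irs1*, *Irs2* and the binding protein genes *Igfbp2*, *Igfbp3*, *Igfbp4*, *Igfbp5* and *Igfbp6*. They are 10 of the 30176 genes measured, and all 10 were found in the table of signals. A probe set stood for a gene if it carried that gene symbol alone, and the rule that selected the probe set with the highest mean signal was not needed, since each of the 10 genes had 1. The genes were chosen with differences between these arrays known, and the study names *Irs1*, *Irs2*, *Igf1* and *Igf1r* for them. Their differences are therefore a description, and each adjusted p below only places a gene in the fit over all 30176 genes.

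IGF-1 and insulin bind receptor tyrosine kinases encoded by *Igf1r* and *Insr*. The activated receptors phosphorylate the docking proteins IRS1 and IRS2, which recruit phosphatidylinositol 3-kinase and turn on AKT and mTOR, while FOXO transcription factors are shut out of the nucleus. IGF binding proteins hold the ligands outside the cell and set how much of them reaches the receptors. SOCS3, an inhibitor of cytokine signaling through gp130 and STAT3, is also known to bind the insulin receptor and to direct IRS proteins to degradation. In the thymus, treatment of mice with IGF-1 is known to enlarge the epithelial compartment.

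RNA came from thymic epithelial cells (TECs), depleted of CD45+ hematopoietic cells and sorted for the epithelial surface protein EpCAM, and was measured on 6 mouse whole-transcriptome arrays. The 3 arrays labelled Δ*socs3* are from Socs3fl/fl actin-creER mice, in which tamoxifen (Tm) turns on a Cre recombinase expressed in all tissues, and the 3 arrays labelled WT are from Socs3fl/fl mice that carry the same floxed alleles and no Cre. All mice got Tm, and TECs were taken 7 days after it. The age of these mice is not given in the sources used here. Since Cre acts in every cell type of the Δ*socs3* mice, an effect within TECs and an effect of other cells on TECs cannot be told apart, nor can fewer cells of a type and less RNA per cell in the sorted fraction.

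The signals are log2 values on a scale of their own, so a difference of 1 is a 2-fold change, and they can be compared between arrays for a gene but not between genes. Negative control probe sets had a 95th percentile of 10.22, and 4446 genes had a mean above this limit. *Socs3* itself had a log2 signal of 8.55, 8.14 and 8.39 on the arrays labelled Δ*socs3* and of 8.0, 8.25 and 7.88 on those labelled WT. The groups overlapped, all 6 values lay below the limit, and the difference of 0.32 (standard error 0.16, adjusted p = 0.284) ran against the labels. The study states that *Socs3* mRNA was significantly lower in Δ*socs3* TECs, which is the opposite sign. Whether the probes lie in the deleted part of the gene is not known, so this check does not settle the labels. The directions of *Irs1*, *Irs2* and *Igf1r* below are also opposite to those the study states for Δ*socs3* and WT TECs. So are those of *Cblb*, *Foxo1*, *Aire*, *Cd40* and *Cd80*. For *Igf1* the study gives no value and no clear direction. Its text only names this gene beside transcripts that it reports as increased in Δ*socs3* TECs. A positive difference means a higher signal under the Δ*socs3* label, and which genotype stands behind a direction cannot be told apart. Replicate 2 of the Δ*socs3* label differed from the other arrays, with positive controls 3.07 above negative controls (3.60 to 3.91 on the other 5 arrays) and an SD over genes of 2.33 (2.61 to 2.67), so differences of the 10 genes are also given without it. In the fit of all genes, 156 genes (0.517%) were higher and 356 (1.18%) lower at an adjusted p under 0.05.

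The promoters of both docking protein genes and of *Igf1r* are shown because the study names each of these genes as changed. It names *Irs1* and *Irs2* in its text and *Igf1r* in a supplementary list. Of the 3, only *Irs2* passed the test below over all 30176 genes with all 6 arrays. The study used another test, with a fold cut, on transcripts above a threshold level. When the fit was made only on genes above the negative control limit, *Igf1r* passed too (adjusted p = 0.0158). On genes brighter than the median, *Igf1r* (adjusted p = 0.0226) and *Irs1* (adjusted p = 0.0444) passed. The 250 bases before the RefSeq start of each gene (build GRCm38.p6) are printed 5′ to 3′ on the strand of the gene. Capitals mark matches to GGGCGG, the GC box bound by SP factors, and to CACGTG, the E-box bound by basic helix-loop-helix factors.
*Irs1* promoter, chr1:82291440-82291689, minus strand: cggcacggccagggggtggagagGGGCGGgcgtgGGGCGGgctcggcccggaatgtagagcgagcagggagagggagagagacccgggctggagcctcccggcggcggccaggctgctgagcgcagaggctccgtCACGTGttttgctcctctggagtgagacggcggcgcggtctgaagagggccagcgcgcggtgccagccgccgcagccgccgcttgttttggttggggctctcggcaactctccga
*Irs2* promoter, chr8:11008930-11009179, minus strand: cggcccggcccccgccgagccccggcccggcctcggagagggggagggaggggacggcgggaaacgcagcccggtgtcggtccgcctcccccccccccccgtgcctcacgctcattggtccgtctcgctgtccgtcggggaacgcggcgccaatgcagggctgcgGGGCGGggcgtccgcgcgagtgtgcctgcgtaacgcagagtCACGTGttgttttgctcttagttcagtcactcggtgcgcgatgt
*Igf1r* promoter, chr7:67952007-67952256, plus strand: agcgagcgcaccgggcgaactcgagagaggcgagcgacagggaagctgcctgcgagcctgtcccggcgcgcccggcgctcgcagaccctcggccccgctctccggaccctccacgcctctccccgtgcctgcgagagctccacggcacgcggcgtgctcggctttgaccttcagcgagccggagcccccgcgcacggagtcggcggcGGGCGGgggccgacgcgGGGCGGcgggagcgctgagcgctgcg

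*Irs1* had 2 GC boxes, starting 227 and 216 bases before the start of the gene, *Irs2* had 1 at 85 bases, and *Igf1r* had 2 at 43 and 26 bases. *Irs1* and *Irs2* each held 1 E-box, at 115 and 44 bases, and *Igf1r* held none in this window. The longest run shared by the *Irs1* and *Irs2* windows was gtcacgtgtt, 10 bases around this E-box. Both strands were searched, and of 32851 mouse promoter windows of this length 32.7% held a GC box and 6.02% an E-box, which was added to the search after the sequences were seen. The windows of *Irs1*, *Irs2* and *Igf1r* are 72.4%, 72.8% and 77.6% G and C (median of all windows 52.4%), and in the 3037 windows of at least 70% G and C the shares were 89.6% and 9.02%. The letters TTCNNNGAA, a STAT motif (7.02% of windows), and GTAAACA, a FOXO motif (3.17%), did not occur in the windows of the 9 genes with a promoter sequence (all but *Insr*). A TATAAA box (12.4% of windows) occurred in *Igfbp4*, 28 bases before the start, and in *Igfbp6*, at 148 bases. Besides the 3 genes shown, *Igfbp2* alone of the 9 held a GC box (at 113, 98 and 37 bases) or an E-box (at 142 bases). A match of letters is not evidence of a bound site.

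*Irs2* (chr8:10984681-11008929) encodes the docking protein that carries much of the insulin signal in liver and β-cells. Its log2 signal was 12.24, 11.46 and 12.35 on the arrays labelled Δ*socs3* and 13.90, 14.80 and 14.10 on those labelled WT. Every array labelled Δ*socs3* lay below every array labelled WT, with a gap of 1.55 between the groups and all 6 signals above the negative control limit. The mean was 12.01 ± 0.49 (SD, n = 3) against 14.26 ± 0.47 (SD, n = 3), a difference of -2.25 (standard error 0.31, 95% interval -2.98 to -1.52), or 4.77-fold. The adjusted p was 0.0338, which placed *Irs2* at rank 133 of all genes by p. Without Δ*socs3* replicate 2, the lowest of its group, the difference was -1.98 (standard error 0.25, adjusted p = 0.00717).

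*Irs1* (chr1:82233105-82291439) encodes the docking protein that carries much of the insulin signal in muscle and fat. Its log2 signal was 8.23, 6.71 and 7.64 on the arrays labelled Δ*socs3* and 8.76, 9.14 and 8.88 on those labelled WT. The groups did not overlap, but all 6 values lay below the negative control limit, where the size of a difference is uncertain, and the arrays labelled Δ*socs3* were spread widely. The difference of -1.40 (standard error 0.36, 95% interval -2.25 to -0.56) did not pass the threshold (adjusted p = 0.0877). Δ*socs3* replicate 2 differed by -1.23 from the mean of the other 2 arrays of its label, and without it the difference was -0.99 (standard error 0.20) and passed (adjusted p = 0.027). The other docking protein genes of the mouse, *Irs3* and *Irs4*, had means of 5.83 and 4.65 on the arrays labelled Δ*socs3* and of 5.78 and 4.76 on those labelled WT, with overlapping groups far below the limit.

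*Igf1r* (chr7:67952257-68233668) encodes the receptor tyrosine kinase for IGF-1 and IGF-2. The log2 signal was 10.24, 9.49 and 10.46 on the arrays labelled Δ*socs3* and 11.40, 12.12 and 11.40 on those labelled WT. The mean under the Δ*socs3* label, 10.06, and its replicate 2 lay below the negative control limit, so the size of the difference is uncertain. The groups were separated by a gap of 0.94. The difference of -1.58 (standard error 0.30, 95% interval -2.28 to -0.87) lay just short of the threshold with all 6 arrays (adjusted p = 0.0542) and was -1.29 (standard error 0.23, adjusted p = 0.0196) without Δ*socs3* replicate 2.

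*Insr* (chr8:3150922-3279649), the insulin receptor gene, had a log2 signal of 9.68, 8.75 and 9.84 on the arrays labelled Δ*socs3* and of 9.59, 9.98 and 9.69 on those labelled WT. The groups overlapped and all values were below the limit. The difference of -0.33 (95% interval -1.0 to 0.35, adjusted p = 0.541) rested on Δ*socs3* replicate 2, without which it was 0.01 (standard error 0.14, adjusted p = 0.98), and quantile normalization turned it to 0.02. With all 6 arrays, a decrease of up to 1.0 or an increase of up to 0.35 is within the interval. The 2 receptor genes were not tested against each other.

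*Igf1* (chr10:87858265-87937047), the gene of the ligand, had the opposite sign. Its log2 signal was 10.67, 9.71 and 10.42 on the arrays labelled Δ*socs3* and 9.78, 9.53 and 9.32 on those labelled WT. Δ*socs3* replicate 2 fell within the range of the WT label, below the limit, and the other 2 arrays of its label lay above both. The difference of 0.72 (standard error 0.26, 95% interval 0.11 to 1.34) did not pass (adjusted p = 0.162). It was 1.00 (standard error 0.16, adjusted p = 0.0134) without that array.

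**Figure D1:**
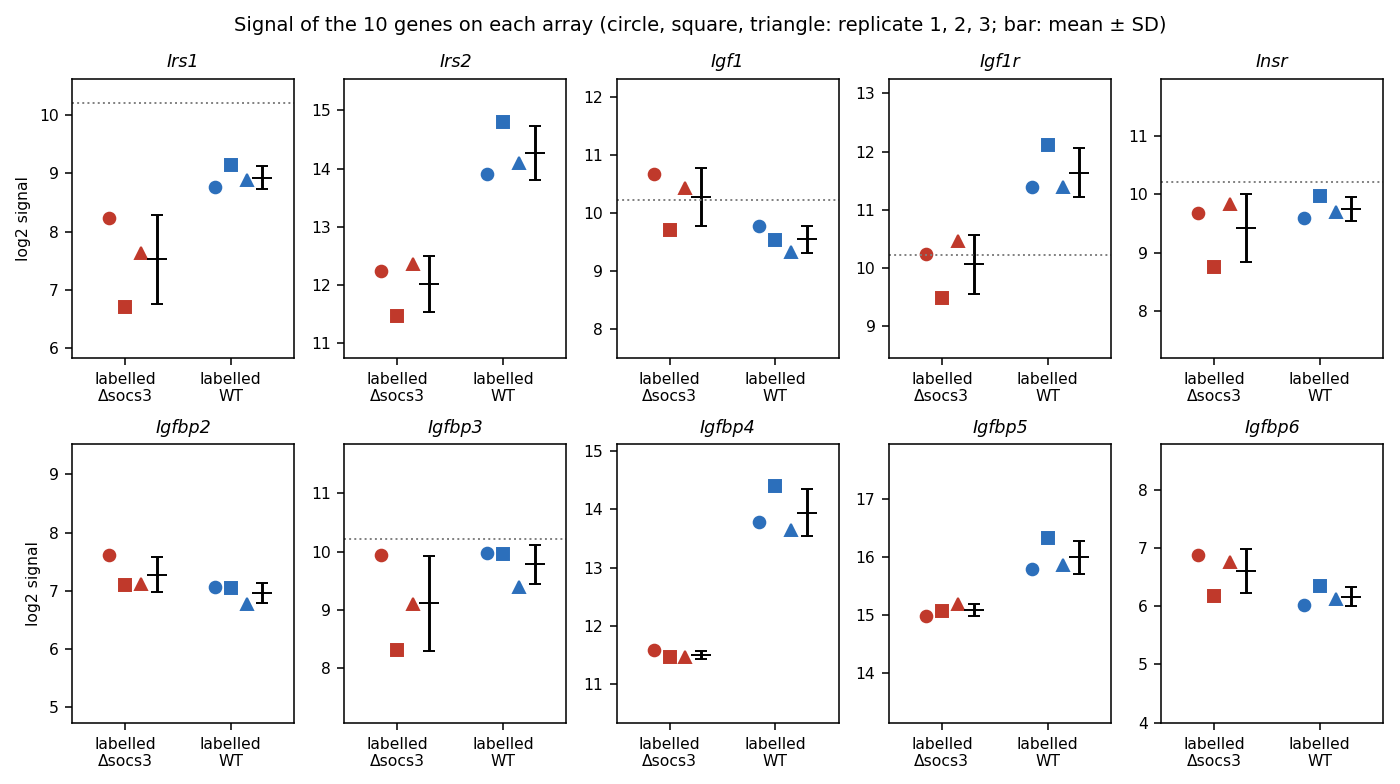
Log2 signal (y axis, an axis of the same span but its own position for each gene) of the 10 genes on the 3 arrays labelled Δ*socs3* (red) and the 3 labelled WT (blue). Circles, squares and triangles are replicates 1, 2 and 3, black bars are the mean ± SD, and the dotted line is the negative control limit of 10.22, drawn where it falls in range. The groups are separated for *Irs2*, *Igfbp4*, *Igfbp5*, *Igf1r* and *Irs1* and, by 0.02, for *Igfbp2*, and the red square is the lowest value of its group for *Irs1*, *Irs2*, *Igf1*, *Igf1r*, *Insr*, *Igfbp3*, *Igfbp6* and, narrowly, *Igfbp2*.

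Among the binding proteins, *Igfbp4* (chr11:99040005-99052655) had the largest difference of the 10 genes. IGFBP4 mostly restrains IGF action and releases its ligand when the protease PAPP-A cleaves it. The log2 signal of *Igfbp4* was 11.58, 11.46 and 11.46 on the arrays labelled Δ*socs3* and 13.78, 14.40 and 13.64 on those labelled WT. All values were above the limit, the 3 arrays labelled Δ*socs3* were nearly equal, and the gap between the groups was 2.05. The difference was -2.43 (standard error 0.21, 95% interval -2.92 to -1.94), or 5.39-fold, with an adjusted p of 0.0228 and rank 8 of all genes by p. Unlike *Irs1* and *Irs2*, it did not lean on Δ*socs3* replicate 2, which differed by -0.06 from the mean of the other 2 arrays of its label, and the difference without it was -2.41 (adjusted p = 0.00356).

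*Igfbp5* (chr1:72858065-72874865) encodes a binding protein that also attaches to the extracellular matrix. Its log2 signal was 14.98, 15.08 and 15.19 on the arrays labelled Δ*socs3* and 15.80, 16.32 and 15.87 on those labelled WT. The groups were far above the limit and did not overlap. The difference of -0.91 (standard error 0.17, 95% interval -1.31 to -0.52), or 1.88-fold, had an adjusted p of 0.0501. Without Δ*socs3* replicate 2 the difference was again -0.91 (adjusted p = 0.0229).

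The other 3 binding protein genes lay below the limit in both groups. *Igfbp3* (chr11:7206086-7215498), whose product is the main carrier of IGFs in blood, ranged from 8.30 to 9.94 on the arrays labelled Δ*socs3* and from 9.40 to 9.98 on those labelled WT, with a difference of -0.66 (95% interval -1.60 to 0.27, adjusted p = 0.356). This size depended on single arrays, at -0.26 without Δ*socs3* replicate 2 and -1.08 without Δ*socs3* replicate 1. *Igfbp2* (chr1:72824480-72852474), next to *Igfbp5* on chromosome 1, ranged from 7.09 to 7.62 and from 6.77 to 7.07, with a difference of 0.31 (95% interval -0.12 to 0.74, adjusted p = 0.352). Its groups touched without overlapping, at a gap of 0.02, and the difference was 0.40 without Δ*socs3* replicate 2 and 0.14 without Δ*socs3* replicate 1. *Igfbp6* (chr15:102144186-102149512), whose product prefers IGF-2, ranged from 6.18 to 6.88 and from 6.03 to 6.35, with a difference of 0.44 (95% interval -0.05 to 0.93, adjusted p = 0.248). Without Δ*socs3* replicate 2 it was 0.65 (adjusted p = 0.0229).

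Of the 10 genes, 2 were called lower (*Irs2* and *Igfbp4*), 0 higher, and 8 did not pass; an unadjusted p under 0.05 was reached by 5 in the lower and 1 in the higher direction (17.9% and 5.86% of all genes). In 5 genes every array labelled Δ*socs3* was below every array labelled WT, in 1 (*Igfbp2*) above, and in 4 the groups overlapped, while over all genes 26.5% were separated in the lower and 8.17% in the higher direction. The lower share was larger among bright genes: of the 4446 genes above the limit, 47.6% were separated in the lower direction, 3.46% were called lower, and the median difference was -0.34 (-0.02 in genes below the limit). The median over the 10 genes was -0.79, and -0.05 over all genes. Since the genes were chosen on this contrast, nothing is read from these counts. Without Δ*socs3* replicate 2, 5 of the 10 genes were called lower (*Irs1*, *Irs2*, *Igf1r*, *Igfbp4* and *Igfbp5*) and 2 higher (*Igf1* and *Igfbp6*), with 6.05% and 5.15% of all genes called in these directions. The calls also depended on other arrays. With Δ*socs3* replicate 1, Δ*socs3* replicate 3, WT replicate 1 or WT replicate 3 left out, 0 of the 10 genes were called, and without WT replicate 2 only *Igfbp4* was, while the differences of *Irs2* and *Igfbp4* stayed at -2.44 to -1.98 and -2.58 to -2.2 over all 6 omissions.

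**Figure D2:**
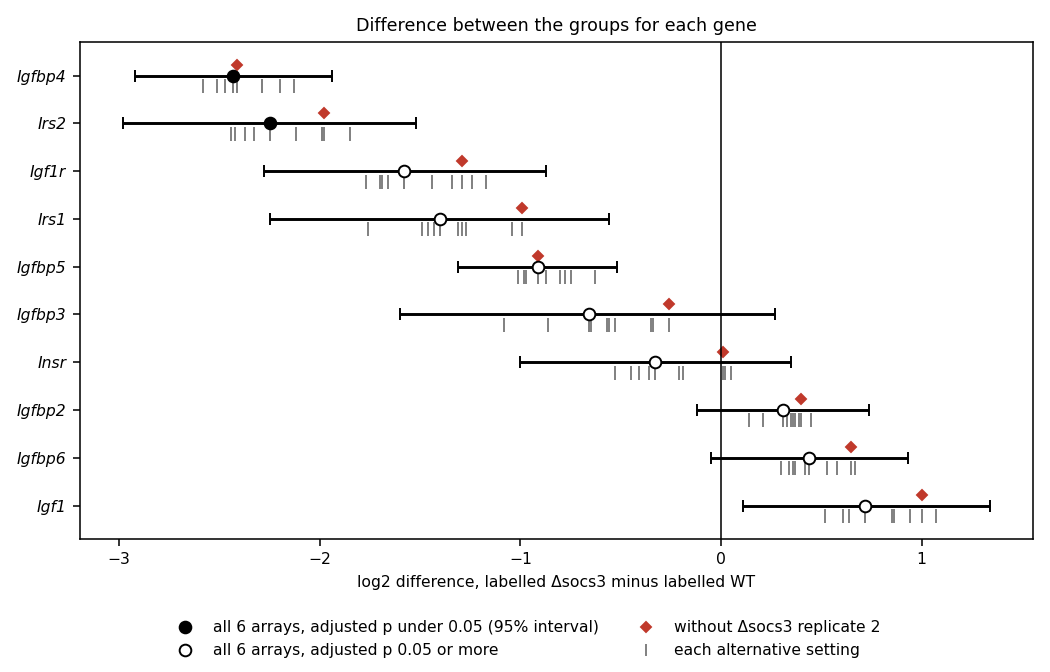
Difference in log2 signal (x axis, Δ*socs3* label minus WT label) for each of the 10 genes, with its 95% interval. Filled circles passed an adjusted p under 0.05 with all 6 arrays (*Igfbp4* at -2.43 and *Irs2* at -2.25), red diamonds leave out Δ*socs3* replicate 2, and grey ticks are the other settings tried. The diamonds lie closer to 0 than the circles for *Irs1*, *Irs2*, *Igf1r*, *Igfbp3* and *Insr* and farther from 0 for *Igf1*, *Igfbp6* and *Igfbp2*.

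The 10 genes followed different courses over the 6 arrays. Likeness was measured as the root mean square distance between the log2 values of 2 genes after the mean of each gene was subtracted, with no test, because all genes of an array share its quality. *Irs2* was closest to *Igfbp4* (0.30) and *Igf1r* (0.35), and *Irs1* was closest to *Igf1r* (0.31) and lay 0.51 from *Irs2*. *Igf1* was closest to *Igfbp6* (0.25) and farthest from *Igfbp4* (1.62), the largest distance of any pair. Among 3219 other named genes above the limit, those nearest to *Irs2* were *Adam28*, a metalloprotease gene (0.11), *Castor1*, the arginine sensor of mTORC1 (0.15), and *Edaradd*, an adaptor of the ectodysplasin receptor (0.17). Nearest to *Igf1r* were *Olfml2a* (0.05), *Cnksr3* (0.06) and *Ajuba*, which encodes a LIM domain protein (0.07), and nearest to *Irs1* were *Plod2*, a collagen lysyl hydroxylase gene (0.14), *Plek2* (0.16) and *Prelp*, a matrix proteoglycan gene (0.16). The neighbors of *Igf1r* had differences of -1.58, -1.67 and -1.55, all with a low value on Δ*socs3* replicate 2, as *Igf1r* had.

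A wider list of 105 insulin and IGF signaling genes, the 10 included, was drawn up by role from pathway knowledge, with earlier results of these arrays known. Of these, 97 were measured, and the others were not analysed here. Among the 97, 5 were called lower and 0 higher, 54 were separated in the lower and 6 in the higher direction, and the median difference was -0.46. Over all genes the called shares were 1.18% and 0.517% and the separated shares 26.5% and 8.17%, or 47.6% in the lower direction among genes above the limit. With the 10 genes taken out, 3 of 87 were called lower, 49 were separated in the lower direction and the median was -0.41. Of the 97 genes, 60 lay below the limit in both groups. Without Δ*socs3* replicate 2, the median of the 97 genes was -0.27, and 15 were called lower and 8 higher (6.05% and 5.15% of all genes). Without any other single array, 0 or 1 were called lower and 0 higher.

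The 3 further genes called lower act next to the docking proteins. *Gab1*, which encodes a scaffold of the same type as the IRS proteins, had a log2 signal of 11.17, 10.62 and 11.22 on the arrays labelled Δ*socs3* and of 12.20, 12.85 and 12.22 on those labelled WT. Its difference was -1.42 (standard error 0.24, adjusted p = 0.0442). *Pik3r1*, the gene of the p85α subunit that binds phosphorylated IRS proteins, had 12.82, 12.22 and 12.66 against 13.53, 13.92 and 13.58, and differed by -1.11 (standard error 0.20, adjusted p = 0.0478). Neither gene had overlapping groups, and all 12 signals were above the limit. *Cblb*, the gene of a ubiquitin ligase known to act on IRS1 in muscle, had 9.20, 8.57 and 9.12 against 10.17, 10.68 and 10.26, and differed by -1.40 (standard error 0.22, adjusted p = 0.0376). Its 3 values on the arrays labelled Δ*socs3* and the lowest on those labelled WT were below the limit. The 3 genes differed by -1.23, -0.94 and -1.20 without Δ*socs3* replicate 2 and passed again (adjusted p = 0.016, 0.0129 and 0.00842).

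By role, all 3 measured ligand genes had positive differences, *Igf1* at 0.72, *Ins2* at 0.46 (adjusted p = 0.083) and *Igf2*, the fetal ligand gene, at 0.38 (adjusted p = 0.18), the latter 2 far below the limit. These were 1.00, 0.45 and 0.49 without Δ*socs3* replicate 2, and each passed (adjusted p = 0.0134, 0.0312 and 0.0416). All 4 receptor genes were below 0 with all 6 arrays, from *Igf1r* at -1.58 over *Igf2r*, the clearance receptor of IGF-2, at -0.72 (adjusted p = 0.174) to the insulin receptor-related gene *Insrr* at -0.04, but *Insr* was at 0.01 and *Igf2r* at -0.42 (adjusted p = 0.133) without that array. Among 12 genes of binding proteins and their proteases the median was -0.22, or 0.01 without it, and *Pappa*, the gene of the protease that cleaves IGFBP4, had 0.78 (adjusted p = 0.0604) while *Htra1*, a protease gene for IGFBP5, had -1.10 (adjusted p = 0.0577). Neither passed with all 6 arrays, and without Δ*socs3* replicate 2 both did, at 0.90 (adjusted p = 0.00829) and -0.86 (adjusted p = 0.00642). *Pappa* lay far below the limit in both groups, with means of 7.16 and 6.39. *Htra1* had a mean of 10.18 under the Δ*socs3* label, also below the limit, so both sizes are uncertain.

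Downstream of the receptors, 9 of 12 docking protein and adaptor genes were separated in the lower direction, 8 of 14 inhibitor genes, 4 of 6 genes for the degradation of IRS proteins, 6 of 9 PI3K and AKT genes, 7 of 11 mTOR genes and 5 of 6 FOXO and GSK3 genes. The share over all genes was 26.5%, and 47.6% among genes above the limit. Their medians lay between -0.64 and -0.50, against -0.34 for all genes above the limit and -0.02 for all genes below it, and the median of the inhibitors had the same sign as that of the activators. Without Δ*socs3* replicate 2 they lay between -0.46 and -0.26, against -0.16 and -0.07. These medians by role were taken only with the arrays shifted to a common median. The median of all genes above the limit was -0.20 without that shift and -0.04 with quantile normalization. The members with the smallest p in the roles without a call were *Grb10*, an adaptor that restrains both receptors, at -0.92 (adjusted p = 0.0699), *Eif4ebp1*, a translation repressor that mTOR releases, at -0.57 (adjusted p = 0.12), and the transcription factor gene *Foxo1*, at -1.28 (adjusted p = 0.0716). Without that array *Grb10* (-0.74, adjusted p = 0.0285) and *Foxo1* (-0.97, adjusted p = 0.021) passed and *Eif4ebp1* (-0.53, adjusted p = 0.102) did not. Of 19 genes known as FOXO targets in various tissues, 10 were separated in the lower and 1 in the higher direction (26.5% and 8.17% over all genes), with a median of -0.33 and *Bcl6* at -1.39 (adjusted p = 0.0669). The median was -0.15 and *Bcl6* was at -1.05 (adjusted p = 0.0114) without Δ*socs3* replicate 2. The measured gene for an IGF-2 mRNA binding protein, *Igf2bp3*, had 0.14 (adjusted p = 0.525).

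**Figure D3:**
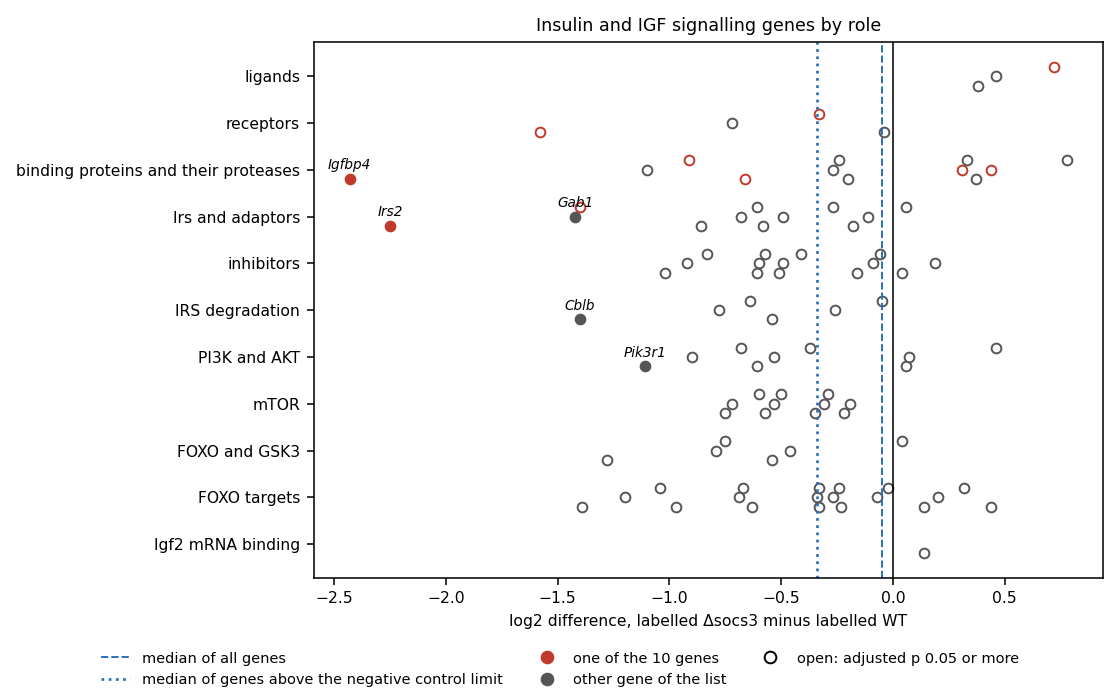
Difference in log2 signal (x axis, Δ*socs3* label minus WT label) of the 97 measured insulin and IGF signaling genes, in a row for each role (red: the 10 genes; filled: adjusted p under 0.05). The dashed line is the median of all genes (-0.05) and the dotted line the median of genes above the negative control limit (-0.34). Most genes between the receptors and FOXO lie left of 0, the ligands lie right of it, and *Igfbp4* and *Irs2* lie farthest left.

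The labelled cell type was present on all arrays: the 7 epithelial and TEC markers, *Epcam* and *Foxn1* among them, were above the limit, with 0 called and a summed signal (log2) of 19.49 to 19.79 on the arrays labelled Δ*socs3* and 19.95 to 20.25 on those labelled WT. Of these 7, 5 were separated in the lower direction (47.6% of all genes above the limit), *Epcam* and *Foxn1* among them, while *Cldn4* differed by 0.83. Without Δ*socs3* replicate 2, *Krt14* was called lower (adjusted p = 0.0269) and *Cldn4* higher (adjusted p = 0.0317). Markers of TEC subsets and of other cells also moved with the labels. The sum for 8 markers of mature medullary TECs was 17.22 to 17.67 on the arrays labelled Δ*socs3* and 16.83 to 16.98 on those labelled WT, with *Aire* and *Cd80* called higher, and that of 8 cortical TEC markers was 17.12 to 17.69 and 17.80 to 18.59, with 0 called. The 7 markers of immature medullary TECs summed to 18.84 to 19.20 and 19.36 to 19.64, with *Pdpn* called lower. A sum adds linear signals, so its brightest gene weighs most. For mature medullary TECs this was *Fezf2* (means 17.09 and 16.60), for cortical TECs *Prss16* (16.81 and 17.43), and for immature medullary TECs *Krt5* (18.83 and 19.22). With all 6 arrays none of these was called. All 8, 8 and 7 genes of the lists differed in the direction of their sum, most of them without a call. Separated in the higher direction were 4 mature markers (8.17% of all genes). In the lower direction 6 cortical and 6 immature markers were separated (26.5% of all genes, 47.6% above the limit). Without Δ*socs3* replicate 2, 7 of 8 mature markers, *Fezf2* among them, were called higher (5.15% of all genes). Called lower were 4 of 7 immature and 0 of 8 cortical markers (6.05% of all genes). The directions of *Aire* and *Cd80* are opposite to those the study gives. These sums did not overlap, in the same direction as *Irs2*, *Igf1r* and *Igfbp4* for cortical and immature medullary TECs and in the same direction as *Igf1* for mature ones. The part of these shifts in the differences of the 10 genes was not tested.

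Fibroblasts, a known source of IGF-1 and of IGF binding proteins, had a summed signal of 8 markers of 13.50 to 14.0 on the arrays labelled Δ*socs3* and of 15.74 to 15.80 on those labelled WT. This rested on *Mgp*, at -2.75 (adjusted p = 0.00859) and rank 1 of all genes by p, since the sum of the other 7 markers was 12.37 to 12.94 and 12.82 to 13.3, which overlap. *Fbln1* was also called lower, at -1.86 (adjusted p = 0.0368), with means below the limit in both groups. The defining collagen genes *Col1a1*, *Col1a2* and *Col3a1* were below the limit in both groups, and *Dcn*, the other marker above it, had means of 12.47 and 12.71 in overlapping groups. Macrophage and dendritic cell markers, also of cells known to make IGF-1, summed to 14.21 to 14.92 and 12.51 to 13.16. Of the 8, 3 were called higher (*Lyz2*, *Mrc1* and *C1qb*), only *Lyz2* was above the limit, and *C1qa*, *Csf1r* and *Adgre1* lay below it in both groups. All 8 differed in the higher direction, and 5 were separated in it, *Csf1r* and *Adgre1* among them (8.17% of all genes). Without Δ*socs3* replicate 2, 5 were called higher (5.15% of all genes). The sum rested on *Lyz2*, at 14.80, 14.14 and 14.88 against 13.06, 12.38 and 12.90. Sums for pericytes (7 markers), endothelium (6), thymocytes (8) and B cells (3) overlapped between the groups, with 0 called. Of the pericyte markers, *Rgs5* was separated in the higher direction, at 0.82 (adjusted p = 0.0614), and *Notch3* in the lower, at -0.61 (adjusted p = 0.176). Without Δ*socs3* replicate 2, 3 pericyte markers and 1 thymocyte marker were called higher, and 0 of endothelium or B cells (5.15% of all genes). An overlap of sums therefore does not show that these cells were equal. The 8 marker genes called with all 6 arrays also passed without Δ*socs3* replicate 2 (adjusted p of 0.00283 to 0.0131). The part of fibroblasts or macrophages in the signals of *Igf1*, *Igfbp4* and *Igfbp5* was not tested.

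**Figure D4:**
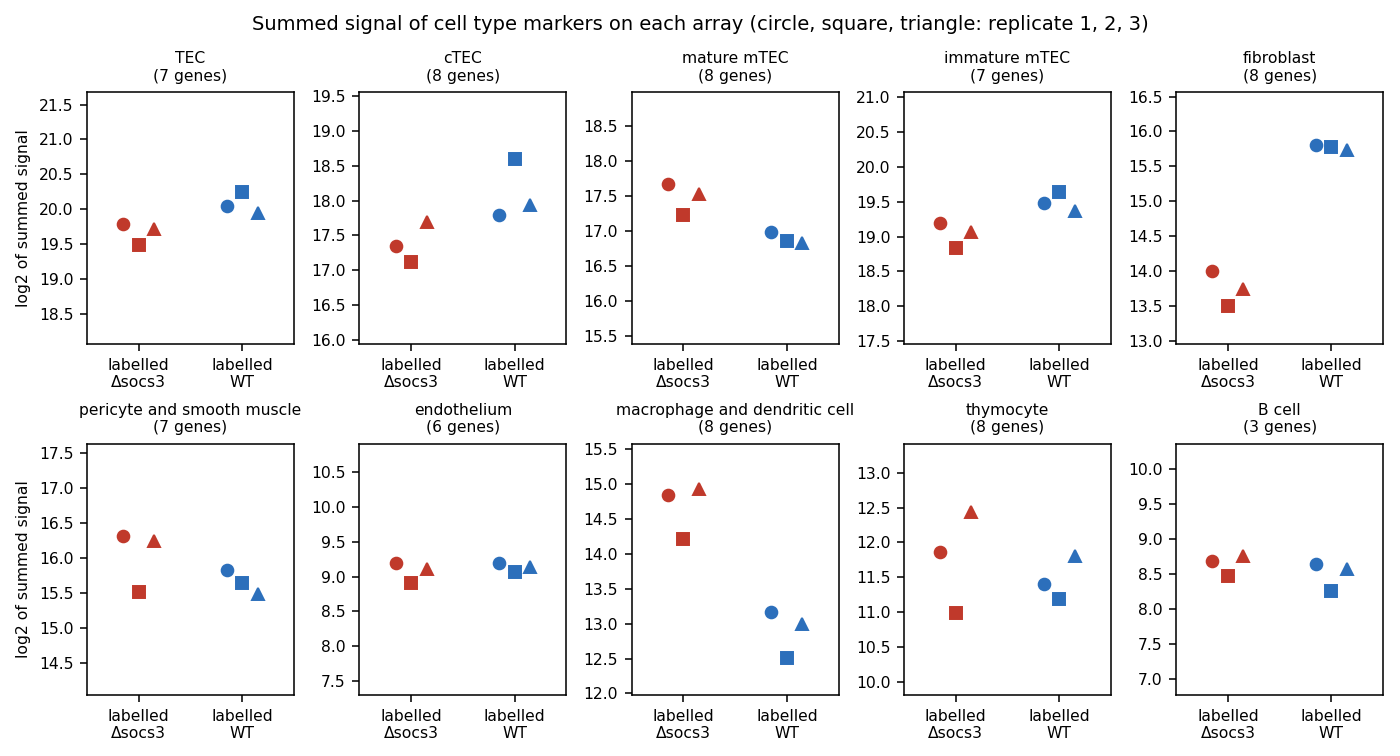
Summed signal of the markers of each cell type (y axis, log2 of the sum, own position for each panel) on the arrays labelled Δ*socs3* (red) and WT (blue), with circles, squares and triangles for replicates 1, 2 and 3. The sums do not overlap for TECs, cortical, mature and immature medullary TECs, fibroblasts, and macrophages and dendritic cells, and the fibroblast sum is 13.50 to 14.0 against 15.74 to 15.80. A sum adds linear signals, so its brightest gene weighs most.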

How the data were processed

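TECs of 3 mice per group were measured on Affymetrix arrays, 1 array per sample. Per the methods, RNA was labelled as biotinylated antisense RNA by *in vitro* transcription, and the authors scaled signals to 150 with MAS5, log2 transformed them and describe per chip and per gene median normalization. In the deposited table each of 72688 probe sets has a log2 signal on every array (range 2.34 to 19.93), without centring per gene. The genome build is not given in the sources used here. Nothing in the labels tells more of how the replicates were made, so p-values measure the spread between these samples.

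Each array was shifted to a common median (by -0.11 to 0.14). Of 65956 transcript clusters, 30638 carried 1 gene symbol in an annotation of 2017, 2176 several and 33142 none, and the probe set with the highest mean was kept per gene (30176 genes). Groups were compared with limma 3.58.1 in R 4.3.3 (lmFit, eBayes) and Benjamini-Hochberg adjustment over all genes at 0.05, with any fold and no filter on dim genes. The script was tested on simulated data. Python 3.11.15, numpy 2.4.6 and pandas 2.3.3 made the summaries. Arrays have no read depth, and their number sets the precision, since with 3 per group the smallest p of an exact permutation test is 0.1.

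The 10 genes, the wider list and the markers were chosen with earlier results of these data known. Single genes were named by rule: the 10 genes, *Socs3*, every called gene of a role of the wider list or else the one with the smallest p, and the 3 nearest genes to *Irs1*, *Irs2* and *Igf1r*. *Irs3*, *Irs4*, *Igf2*, *Igf2r*, *Insrr*, *Pappa* and *Htra1* fall outside this rule and were named after their values were seen. Markers were named beside the genes they move with. Coordinates and promoters are from RefSeq, build GRCm38.p6. The fit was repeated on unshifted values, with quantile normalization, with the mean of all probe sets of a gene and with either filter on dim genes. Further repeats used an intensity trend, array weights, a replicate block or an unpaired t-test, or left out each array. The t-test was run over all genes without a filter. For the arrays the study's methods name a post-hoc test and a fold cut, so this t-test is not their procedure.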

Additional observations from a re-analysis of the deposited data

How the results depend on the processing

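The directions of *Irs1*, *Irs2*, *Igf1*, *Igf1r* and of the 5 binding protein genes stayed the same under every alternative that gave a value, and *Insr* turned to 0.02 with quantile normalization, 0.05 with array weights and 0.01 without Δ*socs3* replicate 2 (-0.53 to 0.01 over the omissions of 1 array). The cause was not tested.

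Counts of calls moved. Of the 10 genes, 0 were called higher, against 1 with quantile normalization, 2 with array weights and 0 to 2 with an array left out. Called lower were 2, against 4 when fitted on genes above the negative control limit (*Irs2*, *Igf1r*, *Igfbp4* and *Igfbp5*). On genes brighter than the median *Irs1* joined these, which made 5. The count was 5 with array weights, 0 by the unpaired t-test after adjustment, and 0 to 5 with an array left out. In the wider list 0 were called higher, against 1 without the shift, 4 with quantile normalization, 1 with a robust intensity trend, 11 with array weights and 0 to 8 with an array left out. Called lower were 5, against 12 with quantile normalization, 9 on genes above the limit and 14 on genes brighter than the median. The count was 22 with array weights, 0 by the unpaired t-test and 0 to 15 with an array left out. Over all genes, 156 were called higher, against 367 without the shift, 1146 with quantile normalization and 338 on genes brighter than the median. The count was 1813 with array weights, 3 by the unpaired t-test and 0 to 1554 with an array left out. Called lower were 356, against 1052 with quantile normalization and 909 on genes brighter than the median. The count was 2730 with array weights, 1 by the unpaired t-test and 0 to 1827 with an array left out. The highest counts of the omissions were those without Δ*socs3* replicate 2.

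Deviations from the group means of arrays with the same replicate number correlated at 0.07, -0.13 and -0.18. Deviations within a group are tied to each other, and Δ*socs3* replicate 2 weighs heavily in them. These values therefore cannot tell whether arrays of the same number were prepared together. With the replicate number as a block, 0 of the 10 genes were called, 0 of the wider list, and 25 higher and 4 lower of all genes. The adjusted p of *Irs2* was 0.0338, and 0.00146 to 0.159 over the alternatives that kept all arrays and 0.00717 to 0.132 with an array left out. That of *Igfbp4* was 0.0228, 0.00063 to 0.132 and 0.00356 to 0.102.

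The shift of the arrays set the median difference of all genes at -0.05, against 0.08 without it. Genes above the limit had a median of -0.34, of -0.20 without the shift, -0.04 with quantile normalization and -0.16 without Δ*socs3* replicate 2. *Irs1*, *Insr*, *Igfbp2*, *Igfbp3* and *Igfbp6* lay below the limit in both groups, *Igf1r* under the Δ*socs3* label and *Igf1* under the WT label, so dim signals limit the sizes of their differences.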
